A study of Mus musculus with 24 samples.

Results

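The interleukin-1 and inflammasome genes Il1a, Il1b, Il1rn, Il1r1, Il1r2, Nlrp3, Casp1, Il18, Pycard and Gsdmd were taken by symbol from a table of normalized counts of mouse choroid. Each symbol matched 1 Ensembl identifier, and all 10 of the 10 genes were found among the 56065 genes of the table. The table has 24 libraries of RNA labelled as choroid, the vascular layer behind the retina. In its dissections the study uses that name for retinal pigment epithelium, choroid and sclera together. Without laser there were 4 wild type and 4 Ceacam1-/- libraries, and with laser there were 9 wild type and 7 Ceacam1-/- libraries. Ceacam1 encodes an adhesion molecule of epithelial, endothelial and immune cells, and the comparison by genotype asks whether the choroidal transcriptome depends on it. The laser burns are a standard model of choroidal neovascularization, made with 6 spots in each eye. The Ceacam1-/- mice carry a homozygous deletion of exons 1 and 2 of the gene on a C57BL/6J background, the wild type mice are littermates, and mice of both sexes, 6 to 8 weeks old unless stated otherwise, were used. The interval between laser and sampling and the sex of each animal were not given in the sources used here. Libraries are called by the number in their labels. Those with laser carry the numbers 1 to 19 and those without 21 to 28, so that anything shared by library number cannot be told apart from laser. The 4 and 4 libraries without laser match the number of mice of each genotype that the study describes. For the laser groups the sources used here do not say that each library is a separate animal, and p-values there measure the spread between libraries.

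Normalized counts summed to a median of 25759862 in wild type and 26530696 in Ceacam1-/- libraries without laser, and of 26057571 and 25282017 in those with laser. Ceacam1 itself stood in the wild type libraries without laser at 958, 5027, 1242 and 4596 (libraries 21, 22, 26 and 27) and in the Ceacam1-/- libraries without laser at 405, 505, 508 and 1171 (libraries 23, 24, 25 and 28). With laser its lowest, median and highest values were 774, 996 and 8367 in wild type and 67.8, 335 and 905 in Ceacam1-/-. The Ceacam1-/- libraries lay lower, with an overlap by 1 library in each comparison, and the log2 differences of -1.95 (SE 0.60) without and -2.17 (SE 0.52) with laser missed the threshold after adjustment (limma, adjusted p = 0.999 and 0.104). Without the 5 libraries high in surface epithelium markers (15, 19, 22, 27 and 28), set aside after seeing the data, the genotypes did not overlap. The libraries that made the overlap, 28 without and 15 with laser, are among these 5, so its absence was fixed by the choice. Wild type then stood at 958 and 1242 and Ceacam1-/- between 405 and 508 without laser, and at 774 to 1776 and 67.8 to 438 with laser. The log2 differences were -1.21 (SE 0.31) and -2.11 (SE 0.36), and still missed the threshold (adjusted p = 1 and 0.06). The value covers the whole gene, so reads from exons outside the deletion are counted in it and it checks the genotype only in part. Libraries 15, 19, 22, 27 and 28 stood apart by high surface epithelium markers and libraries 14, 15, 18, 21 and 23 by high photoreceptor markers, and the calls of the 10 genes that change without them are given both ways. Markers of retinal pigment epithelium (6 genes, most abundant Ttr) and of skeletal muscle (6 genes, most abundant Atp2a1) were high in all groups, with median sums between 159008 and 352845 and between 91843 and 564370.

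Interleukin-1 alpha and beta are cytokines that signal through the receptor Il1r1 to NF-kappaB, the interleukin-1 receptor antagonist (Il1rn) blocks that receptor, and Il1r2 is a decoy receptor that binds the ligand without signalling. Interleukin-1 beta and interleukin-18 are made as inactive precursors and are cut by caspase-1, which is activated when the sensor Nlrp3 assembles with the adaptor Pycard (also known as ASC) into an inflammasome. Caspase-1 also cleaves gasdermin D (Gsdmd), which forms membrane pores through which the cytokines leave the cell. In the eye the pathway is known from macrophages, microglia and the retinal pigment epithelium, and transcript levels say nothing of processing or release of the proteins.

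All 10 genes are protein coding, and positions are given for GRCm39. Il1a (chr2:129140291-129152098, minus strand, 7 exons) and Il1b (chr2:129206490-129213059, minus strand, 7 exons) are separated by 54391 bases. Il1rn lies on the same chromosome (chr2:24226865-24241506, plus strand). Il1r2 (chr1:40113239-40164391) and Il1r1 (chr1:40264174-40356417) are also neighbours, with 99782 bases between them. Nlrp3 lies at chr11:59432394-59457782, Casp1 at chr9:5298508-5307290, Il18 at chr9:50466081-50493633, Pycard at chr7:127588558-127593039 and Gsdmd at chr15:75733974-75739257. The promoter windows of RefSeq (build GRCm38.p6, 250 bases before to 50 after a start) held 13 entries for 9 of the genes. They are shown for the ligands, the antagonist and Nlrp3, because Il1b, Il1rn and Nlrp3 had the highest changes with laser in wild type and Il1a is the neighbour of Il1b. Capitals mark matches, on either strand, to 4 motifs. The core promoter motif was searched as TATAAA. The motif of NF-kappaB was searched as GGGTTTTTCC with any base allowed at positions 4 and 5. The core of sites for PU.1, a factor of myeloid cells, was searched as GAGGAA, and the motif of the stress-responsive factor pair Fos and Jun was searched as TGANTCA. The motifs do not overlap each other in these windows. In this order they were found in 13.6%, 1.6%, 28.3% and 7.8% of all 32851 windows.
Il1a, chr2:129309923-129310222, minus strand: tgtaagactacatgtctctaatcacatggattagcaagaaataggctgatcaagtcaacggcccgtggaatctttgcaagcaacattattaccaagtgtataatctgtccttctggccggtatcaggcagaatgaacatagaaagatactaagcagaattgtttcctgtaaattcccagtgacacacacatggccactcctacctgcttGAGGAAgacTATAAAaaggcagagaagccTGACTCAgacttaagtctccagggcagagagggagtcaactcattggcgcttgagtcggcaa
Il1b, chr2:129371090-129371389, minus strand: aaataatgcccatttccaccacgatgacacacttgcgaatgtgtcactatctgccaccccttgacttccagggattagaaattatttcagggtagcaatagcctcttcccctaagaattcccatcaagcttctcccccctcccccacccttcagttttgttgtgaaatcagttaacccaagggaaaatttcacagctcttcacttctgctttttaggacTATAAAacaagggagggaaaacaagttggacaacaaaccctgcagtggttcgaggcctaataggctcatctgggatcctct
Il1rn, first start, chr2:24336610-24336909, plus strand: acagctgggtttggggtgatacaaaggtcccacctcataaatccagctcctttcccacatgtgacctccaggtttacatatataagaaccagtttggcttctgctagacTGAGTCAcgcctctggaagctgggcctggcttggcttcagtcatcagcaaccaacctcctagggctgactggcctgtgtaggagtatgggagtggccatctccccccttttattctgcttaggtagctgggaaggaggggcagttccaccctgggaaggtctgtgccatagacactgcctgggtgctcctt
Il1rn, second start, chr2:24345121-24345420, plus strand: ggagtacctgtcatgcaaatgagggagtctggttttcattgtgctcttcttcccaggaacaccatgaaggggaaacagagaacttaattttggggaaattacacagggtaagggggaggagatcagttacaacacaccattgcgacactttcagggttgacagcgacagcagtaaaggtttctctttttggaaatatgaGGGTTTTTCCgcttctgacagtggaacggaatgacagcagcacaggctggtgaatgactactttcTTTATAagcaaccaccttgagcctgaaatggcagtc
Nlrp3, chr11:59542436-59542735, plus strand: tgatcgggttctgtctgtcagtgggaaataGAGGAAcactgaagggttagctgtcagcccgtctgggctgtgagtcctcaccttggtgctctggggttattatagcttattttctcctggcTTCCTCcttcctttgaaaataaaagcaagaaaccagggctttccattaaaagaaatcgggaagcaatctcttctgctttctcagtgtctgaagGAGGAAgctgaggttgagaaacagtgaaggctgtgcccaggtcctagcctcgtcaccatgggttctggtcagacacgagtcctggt
Il1a and Il1b both had TATAAA, its first base 32 and 31 bases before the start. Il1a also had GAGGAA and TGACTCA near its start. The windows of Il1rn differed, with TGAGTCA before the first start and GGGTTTTTCC before the second, and the Nlrp3 window shown had 3 matches to GAGGAA. A second Nlrp3 window (chr11:59541319-59541618) held no match to the motifs searched. Another Il1rn window overlaps the second one and holds the same GGGTTTTTCC, so the 2 windows with that motif share 1 match. Values per gene cannot tell which start was used. A match describes letters in a window and shows no binding, and the motifs were chosen with the sequences in view.

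With laser, Il1b, Il1rn, Il1r1 and Nlrp3 rose in wild type choroid, and Il1b and Il1rn rose in Ceacam1-/- choroid. Of the 10, the fitted change was highest for the antagonist Il1rn, at 14.8-fold and 16.5-fold, with log2 ranges of 3.09 to 4.71 and 3.28 to 5.42 when 1 library was left out. Other choices of processing or libraries gave log2 changes of 2.55 to 6.1 in wild type and of 3.69 to 5.65 in Ceacam1-/-. Log2 changes and folds are differences of the group means of log2(normalized count + 1), a scale that understates the change of genes with low values. In wild type 4 of the 10 genes passed the threshold upward and 0 downward, where 5.28% of all 19950 genes tested passed in either direction, 4.23% upward and 1.05% downward. Their median log2 change was 1.16, against -0.10 over all genes tested. In Ceacam1-/- 2 of the 10 passed upward and 0 downward, against 3.72% of all genes in either direction, 2.07% upward and 1.65% downward, with a median log2 change of 0.56 against 0.02. With 1 library left out, 1 to 4 of the 10 passed in wild type and 0 to 3 in Ceacam1-/-. With only the Ceacam1-/- libraries in the fit 0 passed. All 10 genes had a mean normalized count of at least 10 and were tested. The list was chosen with earlier results of these data known, and its counts are a description.

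**Figure D1:**
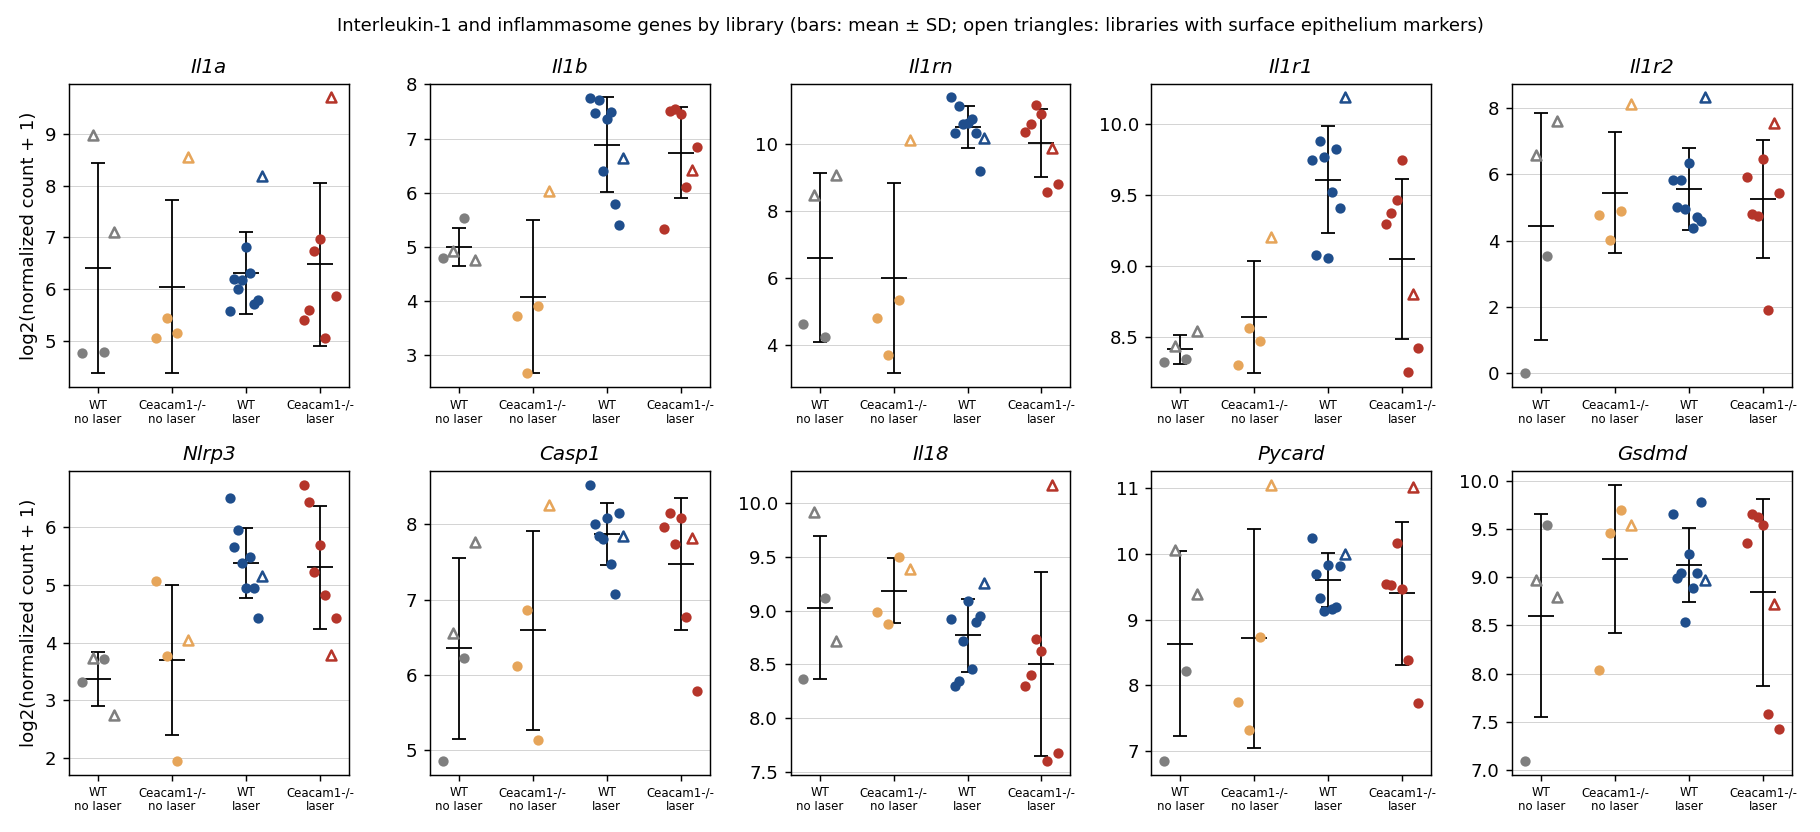
log2 of the normalized count plus 1 for the 10 genes in each of the 24 libraries, by group, with the mean and SD as bars and open triangles for the 5 libraries with high surface epithelium markers. Il1b, Il1rn and Nlrp3 lie higher in the laser groups, and the triangles are the highest points of Il1a in every group.

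Il1b, the inducible ligand, had values of 26.8, 29.4, 45.1 and 26.1 in the wild type libraries without laser (21, 22, 26 and 27). With laser it ranged from 41.4 over a median of 164 to 213 in 9 libraries. The groups overlapped by 1 library, number 17, which lay below library 26. The log2 change of 1.89 (95% interval 0.79 to 2.99, 3.70-fold) passed the threshold (limma, adjusted p = 0.039), and an exact permutation test gave p = 0.0028. In Ceacam1-/- choroid Il1b stood at 12.3, 5.35, 14.0 and 64.4 without laser (23, 24, 25 and 28) and at 39.3, 114 and 185 with laser as lowest, median and highest of 7. Library 28 overlapped the laser group and the other 3 lay below it. The log2 change was 2.66 (95% interval 1.51 to 3.81, 6.31-fold, limma adjusted p = 0.00983, exact permutation p = 0.00606). The wild type call was near the threshold: it was lost without library 1, 2, 3, 12 or 13 of the laser group (adjusted p between 0.0631 and 0.0705) and without 21, 22, 26 or 27 of the other (0.126, 0.0945, 0.0502 and 0.125). It was also lost without the 5 libraries rich in photoreceptor markers that are described with Il1r1 (1.82, adjusted p = 0.0844). The Ceacam1-/- call was lost without library 24 or 25 (2.19 and 2.60, adjusted p = 0.0625 and 0.0509) and with only the 11 Ceacam1-/- libraries in the fit (adjusted p = 0.145), and the change was 3.31 without library 28.

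Il1rn, the antagonist, had values of 24.0, 355, 17.8 and 539 in the wild type libraries without laser (21, 22, 26 and 27). With laser it ranged from 582 over a median of 1534 to 2668, so that the groups did not overlap. No overlap in the upward direction was seen for 3 of the 10 genes, Il1rn, Il1r1 and Nlrp3, and for 4.5% of all genes tested in wild type. The log2 change was 3.89 (95% interval 2.01 to 5.76, adjusted p = 0.0115 by limma), and the exact permutation p of 0.0014 was the smallest that 9 against 4 libraries allow. In Ceacam1-/- choroid Il1rn stood at 26.96, 11.96, 39.6 and 1102 without laser (23, 24, 25 and 28) and at 375, 1319.7 and 2273 with laser as lowest, median and highest. Library 28 lay among the laser libraries, and 0 of the 10 genes were without overlap in Ceacam1-/-, against 1.17% of all genes upward. The log2 change was 4.04 (95% interval 2.09 to 5.999, adjusted p = 0.0188 by limma, exact permutation p = 0.0121). Both calls depended on single libraries without laser. In wild type they were 21 and 26 (log2 change 3.23 and 3.09 without them, adjusted p = 0.0858 and 0.0653), and in Ceacam1-/- 24 and 25 (3.28 and 3.83, adjusted p = 0.112 and 0.105). The size of the change moved as well, to 4.51 and 4.71 without library 22 or 27 in wild type and to 5.42 without library 28 in Ceacam1-/-. With only the Ceacam1-/- libraries in the fit the adjusted p was 0.157.

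The libraries without laser that were high in Il1rn were 22, 27 and 28. These libraries, with 15 and 19 of the laser groups, were the 5 with high levels of the 7 surface epithelium markers (Krt5, Krt14, Krt12, Krt13, Krt4, Trp63 and Krt15), which mark cornea, conjunctiva and skin. Their sums lay between 83032 and 489855 in these 5 libraries and between 126 and 15316 in the other 19. Krt15 was the most abundant, at up to 204359, and of the defining markers Krt12 of the cornea was at 0 in 2 libraries and Krt14 in 3. Without the 5 libraries, an alternative added after seeing the data, Il1rn stood at 17.8 and 24.0 against 582 to 2668 in wild type and at 11.96 to 39.6 against 375 to 2273 in Ceacam1-/-. The groups were then apart in both genotypes, with log2 changes of 6.10 and 5.44 (adjusted p = 2.87e-05 and 2.59e-05 by limma). Libraries 22, 27 and 28 were the highest without laser, so leaving them out can only raise the difference. In Ceacam1-/- the separation followed from leaving out library 28. Without laser 2 wild type and 3 Ceacam1-/- libraries remained. Il1b kept its call in Ceacam1-/- (log2 change 3.36, adjusted p = 0.00392) and not in wild type (1.76, adjusted p = 0.233), where 2 libraries without laser remained.

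Il1a, the ligand that epithelia hold ready, was highest in the same libraries. It was at 26.3, 503, 26.6 and 136 in the wild type libraries without laser and at 32.1, 42.7, 34.4 and 373 in Ceacam1-/-. With laser its lowest, median and highest values were 46.5, 71.6 and 291 in wild type and 32.4, 57.6 and 832 in Ceacam1-/-. The high values were those of libraries 22, 27, 28, 19 and 15: Il1a lay between 136 and 832 in the 5 libraries with surface epithelium markers and between 26.3 and 124 in the other 19. The log2 changes with laser were -0.10 (95% interval -1.78 to 1.58) and 0.43 (95% interval -1.32 to 2.18), with adjusted p of 0.955 and 0.811. Without the 5 libraries Il1a lay at 26.3 and 26.6 without and between 46.5 and 111 with laser in wild type, apart from each other, and the log2 change turned to 1.3 (adjusted p = 0.184). The highest wild type libraries without laser, 22 and 27, are among those left out, so the separation followed from that choice. In Ceacam1-/- Il1a lay between 32.1 and 42.7 and between 32.4 and 124, which overlap (0.72, adjusted p = 0.395). How much of each gene came from surface epithelium in the sample was not tested. In bulk tissue, fewer cells of a type and less RNA per cell cannot be told apart.

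**Figure D2:**
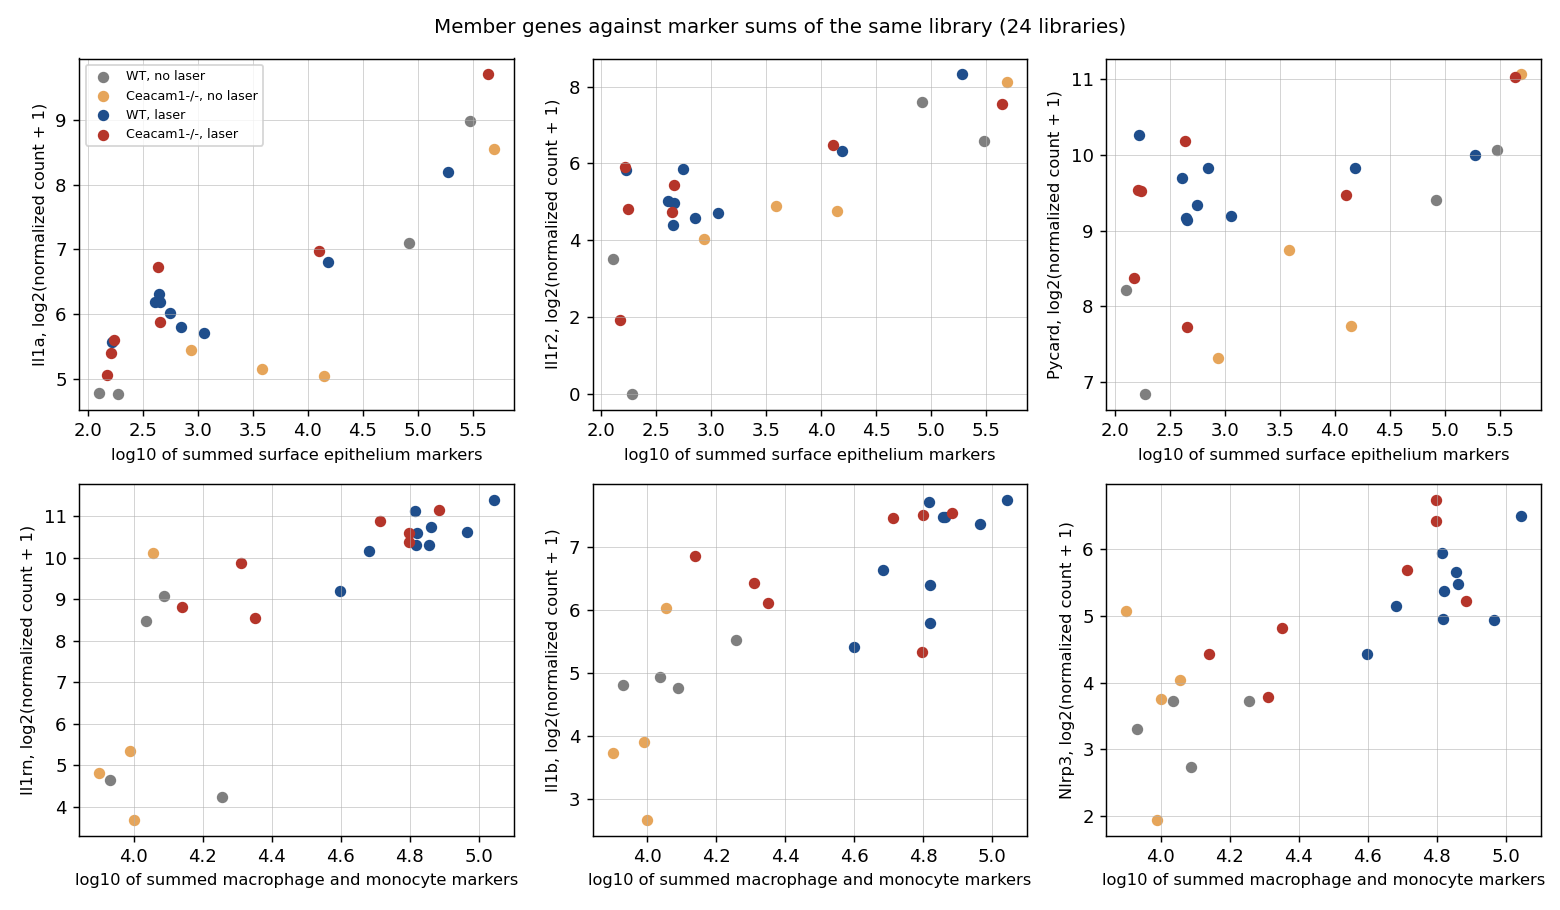
Each point is 1 of the 24 libraries, with log10 of the summed surface epithelium markers (top, against Il1a, Il1r2 and Pycard) or macrophage and monocyte markers (bottom, against Il1rn, Il1b and Nlrp3) on the x axis and log2 of the normalized count plus 1 on the y axis. The 5 libraries with the highest surface epithelium sums hold the 5 highest values of Il1a and of Il1r2.

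Of the receptors, the signalling receptor Il1r1 rose in wild type. It was at 319, 345, 324 and 372 without laser (21, 22, 26 and 27) and ranged from 532 over a median of 858 to 1168 with laser, without overlap. The log2 change of 1.20 (95% interval 0.68 to 1.72, 2.30-fold, adjusted p = 0.00521) was past the threshold whichever of the 24 libraries was left out (adjusted p between 0.00262 and 0.0283), and the exact permutation p was 0.0014. It missed the threshold without the 5 surface epithelium libraries (1.20, adjusted p = 0.0631). In Ceacam1-/- choroid Il1r1 was at 315, 378, 355 and 590.0 without laser (23, 24, 25 and 28) and at 304, 629 and 860.0 with laser as lowest, median and highest. These groups overlapped widely, and the log2 change was 0.41 (95% interval -0.13 to 0.96, adjusted p = 0.391, exact permutation p = 0.236). With array weights, which weigh each library by its fit, it was 0.79 and passed the threshold (adjusted p = 0.0131). The difference between the genotypes in their laser change was -0.78 (95% interval -1.535 to -0.04, unadjusted p = 0.041) and missed the threshold after adjustment (0.64).

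The low Il1r1 values of the Ceacam1-/- laser group came from 3 libraries, 14, 15 and 18, at 304, 445 and 341, while the other 4 lay between 629 and 860.0. The 3 libraries, with 21 and 23 of the groups without laser, were also those with the highest sums of the 7 photoreceptor markers, between 513432 and 968224 against 3050 to 246587 in the other 19. Without these 5 libraries, again an alternative added after seeing the data, the change of Il1r1 with laser was 0.72 in Ceacam1-/- (adjusted p = 0.0553) and 1.17 in wild type (adjusted p = 0.00176), and the genotype difference with laser was -0.14. Other marker sums of libraries 14, 15 and 18 stood apart too. Those of fibroblasts lay between 37843 and 97647, against 352019 to 599838 in the other 4 Ceacam1-/- laser libraries. Those of macrophages lay between 13783 and 22454 against 51725 to 76597, of melanocytes between 9580 and 27412 against 91629 to 184403, and of retinal pigment epithelium between 36815 and 63238 against 159008 to 287475. The part of this tissue makeup in the Il1r1 values was not tested. With group means subtracted, Pearson's r of Il1r1 over the 24 libraries was 0.78 with the fibroblast list, 0.70 with the melanocyte list and -0.24 with the photoreceptor list.

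The decoy receptor Il1r2 was at 0, 95.5, 10.51 and 194 in the wild type libraries without laser (21, 22, 26 and 27) and at 26.3, 15.3, 28.6 and 275 in Ceacam1-/- (23, 24, 25 and 28). With laser its lowest, median and highest values were 20.0, 31.3 and 318 in wild type and 2.76, 42.5 and 186 in Ceacam1-/-. Like Il1a, it separated the libraries by surface epithelium, with 95.5 to 318 in the 5 libraries with these markers and 0 to 88.1 in the other 19. Laser groups overlapped the others in both genotypes (log2 changes 1.12 and -0.18, 95% intervals -1.16 to 3.40 and -2.56 to 2.19, adjusted p = 0.581 and 0.942). The log2 ratio of decoy to signalling receptor was -3.98 ± 3.34 (SD, n = 4) without and -4.06 ± 1.12 (SD, n = 9) with laser in wild type, by normalized counts and not per length (difference -0.08, exact permutation p = 0.959). In Ceacam1-/- it was -3.19 ± 1.47 (SD, n = 4) and -3.79 ± 1.61 (SD, n = 7), with an exact permutation p of 0.573. Without the 5 surface epithelium libraries the wild type change of Il1r2 was 3.45 (adjusted p = 0.0616), set against 0 and 10.51 in the 2 libraries left. The change was reversed without the 5 photoreceptor libraries (-0.35, adjusted p = 0.858) and with array weights (-0.75, adjusted p = 0.509).

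The log2 ratio of the antagonist to Il1b was 1.60 ± 2.75 (SD, n = 4) without and 3.60 ± 0.51 (SD, n = 9) with laser in wild type (exact permutation p = 0.0615). In Ceacam1-/- it was 1.90 ± 1.46 (SD, n = 4) and 3.29 ± 0.98 (SD, n = 7), with an exact permutation p of 0.0879. Among the libraries without laser the ratio was highest in 27, 28 and 22, the libraries with surface epithelium. Without the 5 such libraries the difference was 4.34 in wild type and 2.08 in Ceacam1-/- (exact permutation p = 0.0222 and 0.0238), and leaving out library 22 or 27 (p = 0.0409 and 0.0273) or library 28 (p = 0.00833) alone also took it past the threshold by the exact permutation test. These are the highest libraries without laser, so leaving them out can only raise the difference. With all libraries the difference was 2.00 in wild type and 1.39 in Ceacam1-/-. Over all single omissions it ranged from 1.03 to 2.9 and from 1.09 to 2.11. All 9 wild type laser libraries had a ratio above 2.8.

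**Figure D3:**
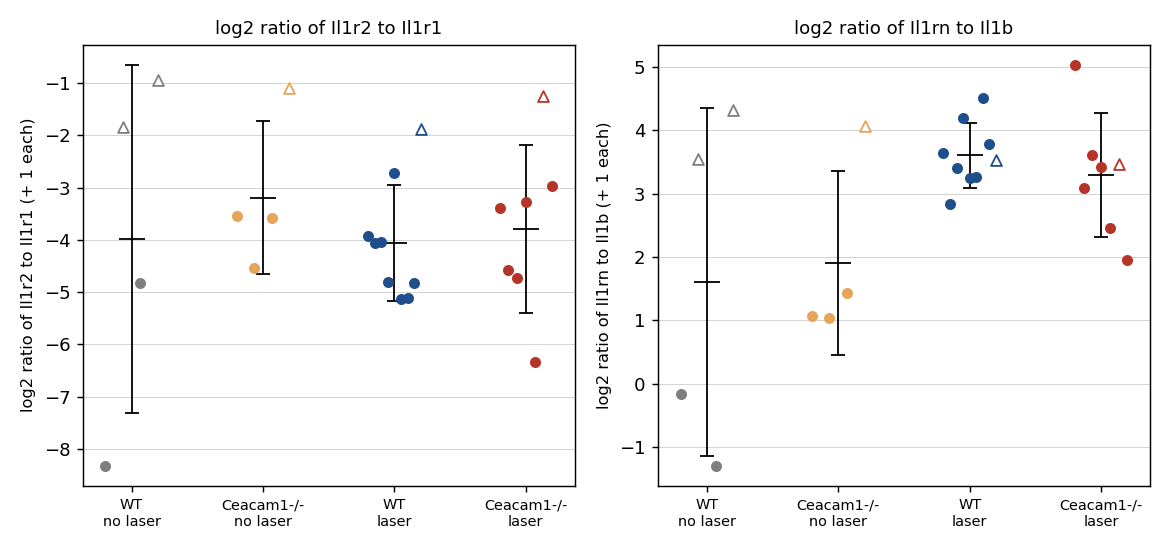
log2 ratios of Il1r2 to Il1r1 (left) and of Il1rn to Il1b (right) in each library, by group, with mean and SD as bars and open triangles for libraries with high surface epithelium markers. The ratio of Il1rn to Il1b is lowest in the libraries without laser that are not high in these markers, between -1.296 and 1.439.

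The inflammasome sensor Nlrp3 had low values and rose in wild type. It was at 8.92, 12.2, 12.2 and 5.65 without laser (21, 22, 26 and 27) and ranged from 20.6 over a median of 40.7 to 89.6 with laser, without overlap. The log2 change was 2.01 (95% interval 0.91 to 3.11, 4.03-fold, adjusted p = 0.0267, exact permutation p = 0.0014). The call was lost without library 1 (adjusted p = 0.0504), 21 (0.087) or 27 (0.122), and without the 5 surface epithelium libraries (1.90, adjusted p = 0.226). In Ceacam1-/- choroid Nlrp3 was at 32.8, 12.5, 2.85 and 15.4 without laser (23, 24, 25 and 28) and at 12.8, 36.4 and 106 with laser as lowest, median and highest. Library 23 without laser lay above 3 of the 7 laser libraries. The log2 change was 1.60 (95% interval 0.45 to 2.75) and missed the threshold (adjusted p = 0.102, exact permutation p = 0.0515), and it ranged from 1.01 (without library 25, adjusted p = 0.482) to 2.06 with 1 library left out. It passed with array weights (2.13, adjusted p = 0.00291), without library 23 (2.06, adjusted p = 0.0232) and without the 5 photoreceptor libraries, of which 23 is one (2.78, adjusted p = 0.00227). The difference between the genotypes in their Nlrp3 change was -0.41 (95% interval -2.002 to 1.18, adjusted p = 0.846).

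Casp1 was at 27.9, 93.0, 73.4 and 217 in the wild type libraries without laser (21, 22, 26 and 27) and ranged from 134 over a median of 229 to 368 with laser. Library 27 overlapped the laser group and the other 3 lay below it. The log2 change of 1.52 (95% interval 0.47 to 2.57) missed the threshold over all genes (adjusted p = 0.0826), with an exact permutation p of 0.0042 for the single gene. It passed with only the wild type libraries in the fit (adjusted p = 0.0234), without library 27 (1.99, adjusted p = 0.0397) and without the 5 surface epithelium libraries (2.34, adjusted p = 0.0314). Without the 5 photoreceptor libraries it was lower (1.02, adjusted p = 0.176). With 1 library left out it ranged from 1.02 to 1.99 (adjusted p between 0.0397 and 0.365), and the lowest value among the other alternatives was 0.632. In Ceacam1-/- choroid Casp1 was at 68.0, 115, 34.0 and 306 without laser (23, 24, 25 and 28) and at 54.2, 225 and 282 with laser as lowest, median and highest, with a log2 change of 0.88 (95% interval -0.21 to 1.98, adjusted p = 0.364). Here too library 28 was the highest of its genotype.

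Pycard, the adaptor, was at 114, 1064, 297 and 673 in the wild type libraries without laser (21, 22, 26 and 27) and at 213, 159, 428 and 2128 in Ceacam1-/- (23, 24, 25 and 28). With laser its lowest, median and highest values were 562, 827 and 1219 in wild type and 212, 735 and 2083 in Ceacam1-/-. The highest values, 2128 and 2083, were those of libraries 28 and 15, both with surface epithelium. The log2 changes of 0.97 (95% interval -0.27 to 2.21) and 0.69 (95% interval -0.61 to 1.98) missed the threshold (adjusted p = 0.372 and 0.564). Without the 5 surface epithelium libraries they were 2.02 (adjusted p = 0.0432, past the threshold) and 1.20 (adjusted p = 0.181). Without the 5 photoreceptor libraries they were 0.379 and 0.635 (adjusted p = 0.705 and 0.5). With 1 library left out they ranged from 0.379 to 1.45 and from 0.225 to 1.47. With array weights the Ceacam1-/- change was 1.52 (adjusted p = 0.0455).

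Of the substrates of caspase-1, Il18 was high without laser already. It was at 328, 965, 556 and 419.9 in the wild type libraries (21, 22, 26 and 27) and at 508, 468, 722 and 669 in Ceacam1-/- (23, 24, 25 and 28). With laser its lowest, median and highest values were 313, 476 and 610.5 in wild type and 193, 338 and 1152 in Ceacam1-/-. The laser groups overlapped the others, and the medians were lower with laser. The log2 changes of -0.26 (95% interval -0.96 to 0.44) and -0.68 (95% interval -1.42 to 0.05) missed the threshold (adjusted p = 0.686 and 0.286). The wild type sign rested on library 22, without which the change was 0.04.

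Gsdmd was at 136, 499.6, 744 and 445 in the wild type libraries without laser (21, 22, 26 and 27) and at 263, 704, 830.3 and 745 in Ceacam1-/- (23, 24, 25 and 28). With laser its lowest, median and highest values were 371, 525 and 875 in wild type and 171, 653 and 803 in Ceacam1-/-. The low values were again those of the photoreceptor libraries: 136 to 420.04 in these 5 and 371 to 875 in the other 19. The log2 changes of 0.52 (95% interval -0.38 to 1.43) and -0.34 (95% interval -1.29 to 0.60) missed the threshold (adjusted p = 0.515 and 0.708). Without the 5 photoreceptor libraries they were 0.023 and -0.0239 (adjusted p = 0.967 and 0.96). With 1 library left out they ranged from 0.023 to 0.837 and from -0.724 to -0.106.

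**Figure D4:**
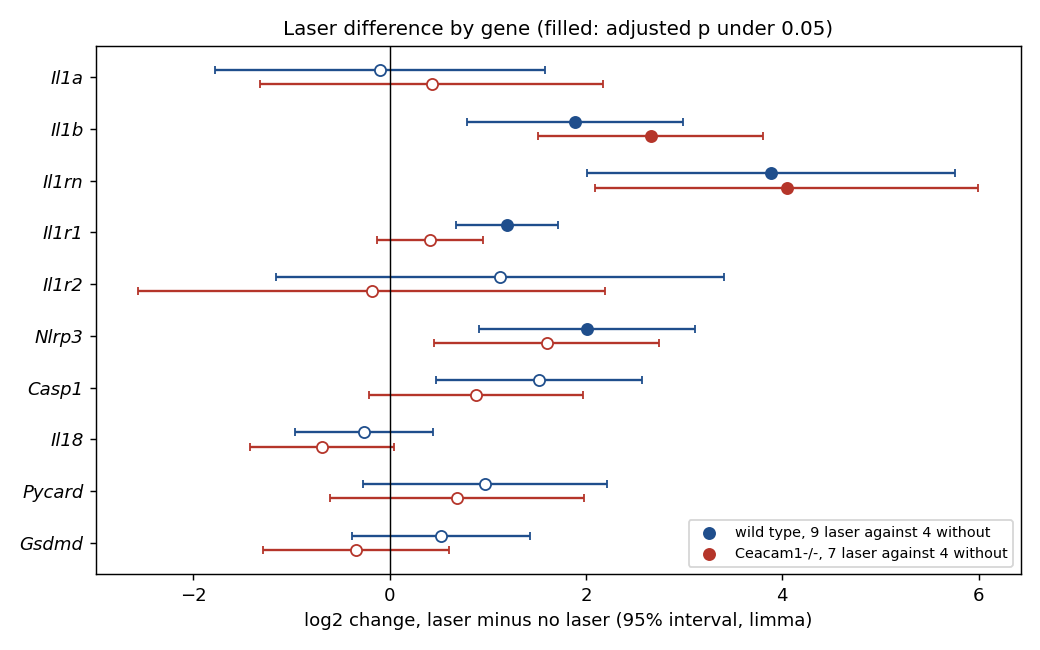
log2 change of each gene with laser in wild type (blue, 9 libraries against 4) and in Ceacam1-/- (red, 7 against 4), with 95% intervals from limma and filled points where the adjusted p is under 0.05. Filled points are Il1b, Il1rn, Il1r1 and Nlrp3 in wild type and Il1b and Il1rn in Ceacam1-/-.

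By genotype, 0 of the 10 genes passed the threshold in any comparison. Without laser, where 0% of 20057 genes passed (1.53% at an unadjusted p under 0.05), the log2 difference of Ceacam1-/- from wild type was -0.92 for Il1b (95% interval -2.53 to 0.69), -0.62 for Il1rn (95% interval -4.20 to 2.96), 0.23 for Il1r1 (95% interval -0.32 to 0.77) and 0.33 for Nlrp3 (95% interval -1.33 to 2.00). Each had an adjusted p of 0.999 by limma, as had Ceacam1 itself. For this comparison the study, using DESeq2 with sex as covariate, reports a small set of genes past an adjusted p of 0.05. The 0% holds for the fit used here, which lacks sex as covariate. With 1 library left out the difference of Il1b ranged from -1.57 to -0.447 and that of Il1rn from -1.99 to 0.205. The other alternatives gave -1.73 to -0.56 for Il1b and -3.03 to 0.178 for Il1rn, without passing the threshold. With laser, where 0.0202% of 19757 genes passed (22.7% at an unadjusted p under 0.05), the differences were -0.15 for Il1b (95% interval -1.01 to 0.71), -0.46 for Il1rn (95% interval -1.25 to 0.33), -0.56 for Il1r1 (95% interval -1.04 to -0.08) and -0.08 for Nlrp3 (95% interval -0.96 to 0.80). Il1r1 was the lowest in p of these, with an unadjusted p of 0.0245, an adjusted p of 0.18 and an exact permutation p of 0.0339. For the change with laser, the genotypes differed by 0.77 for Il1b (95% interval -0.82 to 2.36) and 0.16 for Il1rn (95% interval -2.55 to 2.87), where 0% of 19950 genes passed (6.22% at an unadjusted p under 0.05). A difference of several fold in Il1rn lies within this interval. With 1 library left out these differences ranged from 0.299 to 1.42 for Il1b and from -0.665 to 1.53 for Il1rn. The other alternatives gave 0.422 to 1.6 for Il1b and -0.653 to 3.1 for Il1rn, without passing the threshold.

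Levels of different genes were compared per kilobase of the Ensembl canonical transcript. In wild type with laser the mean was highest for Il1rn, at 628 ± 247 normalized counts per kilobase (SD, n = 9), then Il18 (329 ± 75.2), Gsdmd (292 ± 82.3), Pycard (195 ± 56.0), Casp1 (157 ± 43.3), Il1r1 (137 ± 34.8), Il1b (99.8 ± 48.9), Il1r2 (50.1 ± 66.8), Il1a (27.3 ± 22.4) and Nlrp3 (11.04 ± 5.16). In this order Il1rn and Il18, and Gsdmd and Pycard, differed by more than 1 SD, and the other 7 of the 9 neighbouring pairs did not. Without laser Il18 was highest per kilobase in wild type, at 418 ± 207, and Il1rn had rank 4 of 10, at 94.6 ± 104 (SD, n = 4). Not divided by length, this Il1rn mean was 234, and it was 20.9 without the surface epithelium libraries 22 and 27. In wild type without laser 1 of the 9 neighbouring pairs, Il1b and Nlrp3, differed by more than 1 SD. In Ceacam1-/- the order began with Il18 (436 ± 90.8) without and with Il1rn (507 ± 288) with laser, and 0 of 9 neighbouring pairs were more than 1 SD apart in either group. Nlrp3 was last in all 4 groups.

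Macrophage and monocyte markers rose with laser beside these genes. Of 9 markers, 8 passed the threshold upward in wild type and 6 in Ceacam1-/-, and all 9 were above 0 in every library. Their summed normalized counts went from a median of 11566 (lowest 8548, highest 18084) to 66144 (39726 to 110635) in wild type and from 9893 (7947 to 11386) to 51725 (13783 to 76597) in Ceacam1-/-. Lyz2, the lysozyme of macrophages, was the most abundant, with log2 changes of 2.73 (SE 0.40, adjusted p = 0.000129) and 2.44 (SE 0.41, adjusted p = 0.00193). The median log2 change of the list was 2.26 and 1.63, beside 3.89 and 4.04 for Il1rn, 1.89 and 2.66 for Il1b, 2.01 and 1.60 for Nlrp3 and 1.52 and 0.88 for Casp1. Of 9 neutrophil markers 5 were tested and 2 passed in each genotype, Mmp8 reaching the highest median in the laser groups (198 and 85.0), while Ly6g, which defines neutrophils, was at 0 in 22 of the 24 libraries and Ngp and Stfa2l1 in 17. Of the 7 photoreceptor and 7 surface epithelium markers 0 passed by limma in either genotype, also at an unadjusted p under 0.05. The median log2 change was -1.44 in wild type and 2.34 in Ceacam1-/- for photoreceptor markers, and -0.88 and -2.82 for surface epithelium markers. The missed threshold thus does not show that these tissues were even between the groups. In Ceacam1-/- 6 of 6 skeletal muscle and 5 of 6 retinal pigment epithelium markers were lower with laser at an unadjusted p under 0.05, beside 10.6% of all genes, and 0 passed after adjustment (limma). The part of macrophages in the changes of Il1b, Il1rn, Nlrp3 and Casp1 was not tested.

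Of 16 tested genes known as targets of interleukin-1 and NF-kappaB, 6 passed upward in wild type and 6 in Ceacam1-/-, where 4.23% and 2.07% of all genes passed upward. Downward 0 passed, and the median log2 changes were 1.31 and 1.69. Saa3, an acute phase protein, was between 0.97 and 8.35 without and between 73.6 and 639 with laser in wild type (log2 change 5.53, adjusted p = 3.05e-05), and between 0 and 14.5 and between 47.4 and 310.4 in Ceacam1-/- (5.33, adjusted p = 0.000222). With 1 library left out its change ranged from 5.22 to 5.97 and, in Ceacam1-/-, from 4.88 to 6.19, the highest without library 28. In Ceacam1-/- it was 6.09 without the surface epithelium and 4.59 without the photoreceptor libraries, and with a pseudocount of 10 it was 3.79 and 3.12. All of these passed. The chemokine Ccl2 rose by 3.05 and 2.56 on the log2 scale (adjusted p = 4.86e-05 and 0.00128), the prostaglandin synthase Ptgs2 by 2.47 and 1.87 (0.000218 and 0.0097) and the iron-binding protein Lcn2 by 3.29 and 3.58 (0.00144 and 0.00229). With only the Ceacam1-/- libraries in the fit the second call of Lcn2 was lost (adjusted p = 0.114). Its change in Ceacam1-/- was 2.99 without library 24, 4.2 without 28 and 4.33 without the surface epithelium libraries, and that of Ptgs2 in wild type was 1.86 without the latter. Il6 in both genotypes, Vcam1 in wild type and Mmp3 in Ceacam1-/- complete these counts and are named after their values were seen. Of 15 genes of receptor signalling, 0 passed in either genotype by limma. At an unadjusted p under 0.05 they were 1 and 2, beside 20% of all genes tested in each genotype. The shared adaptor Myd88 had the lowest p of them in both, with log2 changes of 0.79 and 0.66 (adjusted p = 0.0622 and 0.152). It passed in Ceacam1-/- without the photoreceptor libraries (0.94, adjusted p = 0.00807), in wild type with only the wild type libraries in the fit (0.0167) or without library 14 or 28 (0.0329 and 0.0458), and in both with array weights (0.86 and 1.09, adjusted p = 0.000475 and 0.00112). Next in p were Rela (0.35, adjusted p = 0.284) and Irak3 (0.67, 0.321) in wild type and Tab1 (-0.35, 0.166) and Irak2 (-0.54, 0.314) in Ceacam1-/-, of which Rela and Irak3 passed with array weights (0.00507 and 0.026). Median changes of these 15 were 0.03 and 0.13. The difference between the lists was not tested.

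Among the other inflammasome genes, 2 of 22 tested passed upward in each genotype, beside 4.23% and 2.07% of all genes, and 0 downward. The sensor Mefv (pyrin) passed in both, with log2 changes of 3.13 and 3.21 (adjusted p = 0.0161 and 0.0263). Its medians were 2.80 without and 32.7 with laser in wild type and 4.04 and 32.0 in Ceacam1-/-. Naip5 passed in wild type (1.21, adjusted p = 0.0492) and Naip2 in Ceacam1-/- (1.52, adjusted p = 0.0388). They are sensors of bacterial proteins from a family of close copies on chromosome 13, so reads may be shared between them. Naip5 lost its call in 16 and Naip2 in 7 of the 24 fits without 1 library, and Naip5 also without the surface epithelium (1.01, adjusted p = 0.375) or photoreceptor libraries (1.1, 0.0637). Naip5 further lost it with a pseudocount of 10 (0.0578), without the filter (0.0915), with the filter at 50 (0.0529), with upper-quartile scaling (0.0555) and with the Y-linked covariate (0.0884). Naip2 lost it without the filter (0.0717), with quantile normalization (0.0727) and with only the Ceacam1-/- libraries in the fit (0.19). Mefv lost its call in wild type without library 21 or 22 (adjusted p = 0.0633 and 0.088) and in Ceacam1-/- without library 5, 7, 24 or 25 (0.0533, 0.0506, 0.0591 and 0.0897), and the second change was 2.61 without library 23. With a pseudocount of 10 the changes of Mefv were 1.67 and 1.71. It also lost the first without the surface epithelium libraries (2.51, adjusted p = 0.289) and the second without the filter (0.0526) or with only the Ceacam1-/- libraries in the fit (0.115). Panx1, a membrane channel (1.19, adjusted p = 0.0607), and Nlrp10 (-1.83 in Ceacam1-/-, adjusted p = 0.0814) did not pass. Panx1 passed with array weights (0.95, adjusted p = 0.00562) and without library 14, 17, 19 or 23 (0.0498, 0.0226, 0.0424 and 0.0493). Nlrp10 passed with array weights (-2.77, adjusted p = 0.00453) and without library 4 (-2.12, 0.0393), 23 (-2.46, 0.00805) or the photoreceptor libraries (-2.55, 0.0125). Of 9 other genes of the interleukin-1 family tested, 0 passed in wild type by limma (3 at an unadjusted p under 0.05, beside 20% of all genes) and 1 in Ceacam1-/-. It was Il18rap, a subunit of the interleukin-18 receptor, with a log2 change of 2.96 (adjusted p = 0.0195, 0.102 without library 25 and 0.14 with only the Ceacam1-/- libraries in the fit). Over the alternatives other than single omissions this change ranged from 1.53 to 3.54. In wild type the change of Il18rap was 1.96 (adjusted p = 0.0892), and 1.54 with array weights, which passed (0.0166). It was 1.04 without the photoreceptor and 2.93 without the surface epithelium libraries (adjusted p = 0.177 and 0.0732), and 1.04 to 2.39 with 1 library left out. Il33, an alarmin of stromal and endothelial cells, had log2 changes of 1.00 and 1.04 (adjusted p = 0.0742 and 0.0866), and its receptor Il1rl1 had 2.10 and 1.62 (0.109 and 0.25). These values missed the threshold. Il33 passed in both genotypes without the photoreceptor libraries (1.1 and 1.43, adjusted p = 0.0254 and 0.00716), with array weights (0.74 and 1.01, 0.00942 and 0.0109) and without library 23 (1.00 and 1.5, 0.0242 and 0.00301). In wild type it also passed without library 25 (0.0334) and with only the wild type libraries in the fit (0.0178), and Il1rl1 passed with array weights (1.71, 0.0172). Il36a, Il36b, Il36rn and Il1f10 were below the mean of 10.

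After the group means were subtracted, the genes most alike across the 24 libraries were sought for each member by Pearson's r of the log2 values. The search covered the 19950 genes with a mean of at least 10. Taking the highest of so many raises r by itself, and r recomputed without some libraries is for pairs already chosen. The libraries share their tissue makeup, so these values describe the samples. For Pycard the genes most alike were Capg, an actin-capping protein (r = 0.97), and Tmsb4x (0.95), and without the 2 libraries farthest from the median r was 0.98 and 0.95. For Casp1 they were Apobec3 (0.92 with and 0.92 without those 2) and Cklf (0.86 and 0.81), and for Il1rn Plk1 (0.92 and 0.91) and D17H6S56E-5 (0.91 and 0.95). For Il1b they were Lck (0.79 and 0.82) and Nppb (0.79 and 0.80). For Il1r1 they were Matn4 (0.80 and 0.76) and Ece1 (0.80 and 0.76), and for Nlrp3 Slc1a4 (0.88 and 0.86) and Kcna1 (0.87 and 0.84). For Il1a they were Galnt18 (0.96 and 0.92) and Fermt1 (0.95 and 0.92), and for Il1r2 Cbr2 (0.90 and 0.89) and Gm16136 (0.90 and 0.87). For Il18 they were Slc39a8 (0.90 and 0.79) and Upk3bl (0.88 and 0.79), and for Gsdmd 1700018A04Rik (0.94 and 0.93) and Mgmt (0.94 and 0.90). With the marker lists, r was highest with surface epithelium for Il1a (0.94), Il1r2 (0.79), Pycard (0.69), Il18 (0.68) and Il1rn (0.55), and with macrophages and monocytes for Casp1 (0.65), Nlrp3 (0.56) and Il1b (0.34). The neutrophil list was about equal for Il1b (0.32), whose r was low with every list, and the fibroblast list was close for Nlrp3 (0.52). For Gsdmd the lists of mast cells (0.854) and endothelium (0.851) were about equal, beside 0.78 with macrophages and monocytes and -0.79 with photoreceptors. Pycard had 0.42 with the macrophage and monocyte list, and Il1b 0.15 with that of T and B lymphocytes. Among the members themselves the closest pair was Il1rn and Pycard (0.79), and Nlrp3 followed none of the other members above 0.35.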

How the data were processed

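The authors made SMART-Seq libraries from about 10 ng of RNA, quantified reads with Salmon 1.10.3 against GRCm39 (GENCODE vM35) and imported them into DESeq2 1.44.0. The deposited signal values are normalized counts, estimated reads divided by factors for library size and average transcript length. Read counts could not be recovered, so precision rests on the spread between libraries. Positions come from GENCODE (GRCm39), matching 99.1% of identifiers.

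Values were analysed as log2 of the normalized count plus 1 with limma 3.58.1 (R 4.3.3, variance trend). Genes with a mean of at least 10 were tested, with Benjamini-Hochberg adjustment over all of them and a threshold of 0.05. Laser was compared within each genotype, with its interaction, in 1 fit of all 24 libraries. Genotype was compared in fits of the 8 and 16 libraries without and with laser. The 2 laser comparisons thus share an estimate of spread. Single genes and ratios had two-sided exact permutation tests. A sentence that gives an adjusted p refers to limma. The fits were tested on simulated data.

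The 10 genes and all lists were chosen with earlier results of these data known. Named are the 10 genes, the 3 genes of lowest p in each pathway list and laser comparison, the 2 genes most alike to each member and each marker list's most abundant gene, except that the one of the photoreceptor list is not reported here. Markers of mast cells (most abundant Kit), T and B lymphocytes (Trac), endothelium (Plvap), fibroblasts (Col1a1), retinal pigment epithelium (Ttr), melanocytes (Dct), skeletal muscle (Atp2a1), lens (Cryaa) and erythroid cells (Hbb-bs) were also tested for laser. In wild type and in Ceacam1-/- 1 of 5 fibroblast markers passed upward, and 0 markers of the other 8 lists passed in either genotype by limma. At an unadjusted p under 0.05, 6 of 6 skeletal muscle and 5 of 6 retinal pigment epithelium markers were lower with laser in Ceacam1-/-, where 10.6% of all genes were.

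The results were recomputed with a pseudocount of 0.5 or 10, without the filter or with one at 50, after quantile or upper-quartile scaling, with limma lacking the trend or adding robust variances, with array weights, with summed Y-linked genes as covariate, with fewer or more groups fitted together, and with every library omitted once. Setting aside the 5 libraries with surface epithelium sums above 50000 and, separately, the 5 with photoreceptor sums above 400000 was added after seeing the data. Permutations were enumerated with numpy 2.4.6, tables used pandas 2.3.3 and plots matplotlib 3.10.9 (Python 3.11.15). The promoter of Gsdmd is not shown, and 1 outlier library that the study's methods say was removed could not be matched to a library number.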

Additional observations from a re-analysis of the deposited data

Results flagged for a closer look

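In groups of 4 to 10 libraries, 6 of 48 groups of values had a highest or lowest library far from the rest by Dixon's criterion, which flags about 1 in 20 groups by chance. Il1a stood out in 3 groups. In Ceacam1-/- without laser, library 28 had a normalized count of 373.1, and the other 3 lay between 32.1 and 42.7. In wild type with laser, library 19 had 291.3 and the others between 46.5 and 111. In Ceacam1-/- with laser, library 15 had 831.5 and the others between 32.4 and 124. Il1r2 in wild type with laser was at 318.2 in library 19 and between 20.0 and 79.5 in the others. The log2 ratio of Il1rn to Il1b in Ceacam1-/- without laser was 4.08 (4.076) in library 28 and between 1.03 and 1.439 in the others. These 5 values belong to libraries with high surface epithelium markers. Gsdmd in Ceacam1-/- without laser was at 262.6 in library 23, a library with high photoreceptor markers, and between 704 and 830.3 in the others. The part of the other tissue in these values was not tested.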

How the results depend on the processing

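Among the 369 values of the 10 genes in the alternatives for laser in wild type, 335 kept their direction and side of the threshold, 21 lost a call, 4 gained one and 9 changed sign. Of 369 in Ceacam1-/- these were 351, 6, 5 and 7. The 4 genes of the laser comparisons that changed sign, Il1a, Il1r2, Il18 and Gsdmd, had not passed the threshold. Il1b and Nlrp3 in wild type missed it without a filter (adjusted p = 0.0662 and 0.0563) and Il1b with the Y-linked covariate (0.0519). Laser in wild type turned for Il1a to 0.07 (0.0669, quantile normalization), 0.05 (0.0486, Y-linked covariate) and 1.3 (without surface epithelium libraries), and for Il1r2 to -0.75 (array weights) and -0.35 (without photoreceptor libraries). In Ceacam1-/- it turned for Il1r2 to 0.75 (array weights) and 0.32 (without surface epithelium), for Gsdmd to 0.03 (0.0341, array weights) and for Il1a to -0.21 (without photoreceptors). The interaction turned for Il1rn to -0.01 (-0.0135, Y-linked covariate) and -0.65 (without surface epithelium), and for Nlrp3 to 0.07 (0.0657, without surface epithelium) and 0.79 (0.785, without photoreceptors). The genotype difference without laser turned for Il1rn to 0.18 (without surface epithelium) and for Nlrp3 to -0.15 (without photoreceptors). With laser it turned for Il1b to 0.13 (array weights) and 0.07 (0.065, without photoreceptors), for Nlrp3 to 0.37 (array weights), 0.14 (without surface epithelium) and 0.64 (without photoreceptors), and for Il1rn to 0.25 (without photoreceptors). With 1 library left out, the ranges that include a change of sign were, for laser in wild type, -0.645 to 0.758 (Il1a), -0.353 to 2.18 (Il1r2) and -0.482 to 0.0354 (Il18), and in Ceacam1-/- -0.109 to 1.26 (Il1a) and -0.658 to 0.704 (Il1r2). They were -0.665 to 1.53 (Il1rn) and -0.998 to 0.0458 (Nlrp3) for the interaction, -1.99 to 0.205 (Il1rn) for genotype without laser, and -0.334 to 0.0868 (Il1b) and -0.319 to 0.173 (Nlrp3) with laser.

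Members called with laser in wild type were 2 without a filter on low values, where 787 of 40409 genes were called. In Ceacam1-/- they were 5 with array weights and 0 with only the compared libraries in the fit. Leaving out 1 library gave 1 to 4 in wild type (1 without library 21, 2 without 1 or 26) and 0 to 3 in Ceacam1-/- (0 without 24 or 25). Over all genes, 1053 calls in wild type became 6505 (array weights), 2274 (only compared libraries), 491 (without surface epithelium), 1645 (without photoreceptors) and 479 to 1257 with 1 library left out (479 without 21, 554 without 27). The 742 in Ceacam1-/- became 437 (no filter), 3551 (array weights), 38 (only compared libraries), 2923 (without photoreceptors) and 148 to 2488 with 1 library left out (466 without 5, 2488 without 23, 255 without 24, 148 without 25). By genotype without laser, 0 became 1 without trend, with array weights and among left-out libraries (0 to 1). With laser, 4 became 2 (mean of at least 50), 297 (array weights), 9 (all 24 libraries), 2 (without photoreceptors) and 4 to 61 (7 without library 4, 25 without 17, 61 without 19). The cause was not tested.

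The laser difference in the log2 ratio of Il1r2 to Il1r1 in wild type turned to 0.17 (pseudocount 0.5) and 2.24 (without surface epithelium), and ranged from -1.52 to 0.94 with 1 library left out, and from -1.05 to 0.10 (0.0995) in Ceacam1-/-. That of Il1rn to Il1b passed in wild type at 1.98 (pseudocount 10, exact permutation p = 0.0476) and 4.34 (without surface epithelium) and in Ceacam1-/- at 2.08 (without surface epithelium). With 1 library left out it ranged from 1.03 to 2.90 and from 1.09 to 2.11. No paired analysis was possible because each library has its own number and the groups share none. Depth per library is unknown as reads, and Nlrp3, Il1r2 and, in library 24, Il1b include values under the mean of 10 that the filter asks for. With 4 libraries in each group without laser, of which 2 and 1 are high in surface epithelium markers and 1 each in photoreceptor markers, the 95% intervals of Il1a, Il1rn and Il1r2 are wide.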
